A study of Mus musculus with 16 samples.

Results

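Müller glia, the main support cells of the retina, were followed through 30 genes in mouse retina collected 3 days after optic nerve crush. The genes form a list taken by symbol: 10 that mark Müller glia in the resting retina and 20 that retinal and brain glia are known to induce when they become reactive. This list and the other gene lists below were chosen with earlier results of these data known. Counts of their genes set beside the share of all tested genes are therefore descriptive. All 30 were found among the 36528 gene identifiers of the deposited count tables, and all 30 were among the 19391 genes with enough reads to be tested. The 16 poly(A) RNA libraries came from crushed retinas of mice given GNE-3511 (crushed inhibitor, n = 5), crushed retinas of mice given the vehicle MCT (crushed vehicle, n = 3), uncrushed retinas of GNE-3511 mice (uncrushed inhibitor, n = 5) and uncrushed retinas of vehicle mice (uncrushed vehicle, n = 3). GNE-3511 inhibits DLK (dual leucine zipper kinase), which in an injured neuron relays the signal of axon damage to the nucleus. It was given at 75 mg/kg at 60 h and at 68 h after the injury, so the first 60 h after injury passed without drug. The labels state 5 mice per drug and give no strain, age, sex or genotype. They do not say whether a crushed and an uncrushed retina came from the same mouse. If each library holds 1 retina, the 5 crushed and 5 uncrushed inhibitor libraries would be both eyes of 5 mice. For the 3 crushed and 3 uncrushed vehicle libraries the stated number does not settle this. The identifiers in the titles run in 8 consecutive couples of 1 crushed and 1 uncrushed library of the same drug. The main fit treats all libraries as independent, and its p-values reflect sample-to-sample spread. That spread includes any difference between mice that pairing would remove, and part of it may be technical. Crush effects are also given with the couples as a block.

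Müller glia span the thickness of the retina. They take up glutamate through the transporter Slc1a3 and turn it into glutamine with glutamine synthetase (Glul), carry 11-cis-retinal with Rlbp1, and move water through the channel Aqp4. After injury they become reactive, a state known as gliosis: they fill with the intermediate filaments Gfap, vimentin and nestin and induce acute-phase and cytokine-responsive genes, many of them through STAT3. Retinal astrocytes, a smaller population in the nerve fibre layer, express Gfap at rest, and microglia and macrophages also express several of the reactive genes, among them Lgals3, Cd44 and Vim. In whole retina, more cells of a type and more RNA per cell cannot be told apart, and neither can the cell type that holds a transcript.

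The libraries held 22.35 to 44.75 M uniquely aligned reads. The first principal component of the log2 scaled counts held 30.11% of the variance and placed the 8 crushed libraries, at -27.1 to -7.14, apart from the 8 uncrushed ones, at 10.7 to 25.8. Uncrushed vehicle replicate 1 was the shallowest and had the highest mitochondrial share, 4.54%. A set of 10 lens genes summed to 18.5 to 703 CPM (counts per 1 M counts of the library) in uncrushed inhibitor and 2.61 to 317 CPM in uncrushed vehicle retinas, against 28.1 CPM at most in crushed ones, and crush effects are therefore also given without the 3 libraries richest in them, uncrushed inhibitor replicates 3 and 5 and uncrushed vehicle replicate 2. Of 9 ganglion cell genes tested, 7 fell in inhibitor mice and 7 in vehicle mice, 6 of them in both.

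Levels are given in nRPKM, the authors' RPKM (reads per kilobase of gene and per 1 M reads) scaled by a factor per library, a scale per length on which genes can be compared. The identity genes were detected in all 16 libraries, each above 3 nRPKM, so the retinas carry the defining Müller glia transcripts. In uncrushed vehicle retina Glul stood at 681 ± 67.1 nRPKM (SD, n = 3), Clu, which encodes the secreted chaperone clusterin, at 286 ± 5.11, and the secreted Wnt-pathway modulator gene Dkk3 at 272 ± 42.7. The levels of Clu and Dkk3 overlapped. Rlbp1 followed at 177 ± 11.1 nRPKM, above Slc1a3 at 49.8 ± 8.24 and the carbonic anhydrase gene Car14 at 44.3 ± 2.44, whose levels overlapped. Aqp4, at 18.8 ± 3.09 nRPKM, lay above the transcription factor genes Sox2 (10.3 ± 2.37), Hes1 (8.43 ± 1.13) and Sox9 (4.02 ± 0.484), of which Sox2 and Hes1 overlapped. Exons of Aph1a lie opposite 17.5% of Car14's exonic bases. The unstranded libraries cannot separate the reads of such a pair, so the Car14 level may include reads of Aph1a.

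At rest the reactive genes spanned a wide range. Vim was the most abundant in uncrushed vehicle retina at 76.3 ± 10.2 nRPKM, followed by Cp at 32.3 ± 2.35, S100a10 at 18.6 ± 1.67 and Id3 at 16.2 ± 0.66. Gfap stood at 6.65 ± 1.42 nRPKM, Nes at 1.06 ± 0.19, Bcl3 at 0.565 ± 0.0189 and Steap4 at 0.338 ± 0.102. Aspg was barely detected, with 0 to 14 reads in each of the 16 libraries, so its values carry little information.

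**Figure D1:**
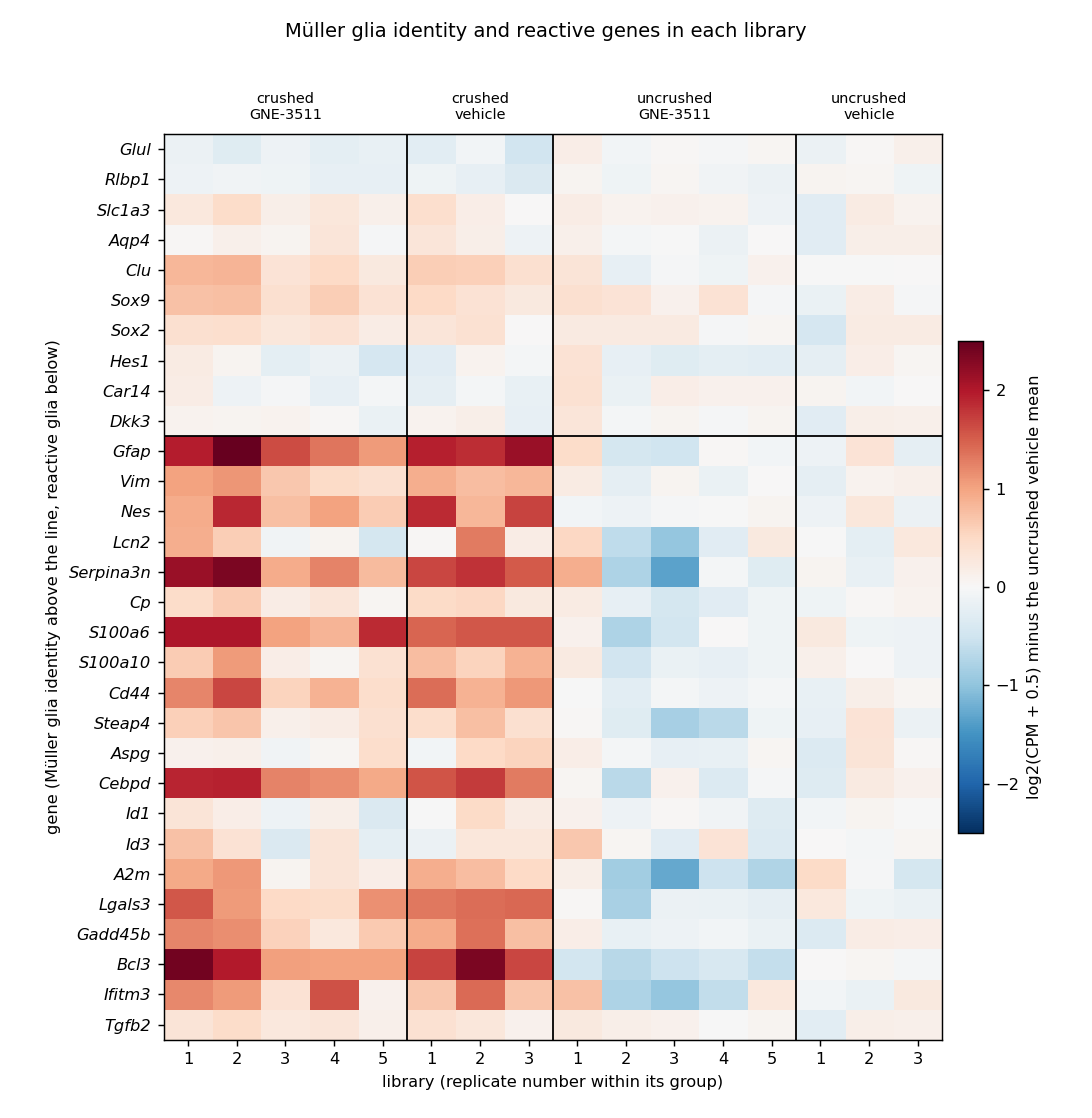
Heat map of the 30 genes (rows) in the 16 libraries (columns), as log2(CPM + 0.5) minus the mean of the uncrushed vehicle libraries; red is higher and blue lower. Most reactive genes are red in the crushed libraries, Lcn2, Id1 and Id3 being among the exceptions, and the identity genes are pale by comparison.

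Crush was compared in 5 crushed against 5 uncrushed inhibitor retinas and in 3 crushed against 3 uncrushed vehicle retinas. Most reactive genes rose in inhibitor mice and 9 of them in vehicle mice as well; Clu was the 1 identity gene to pass. In inhibitor mice 14 of the 20 reactive genes rose and 0 fell, where 3.29% of all tested genes rose and 2.04% fell. In vehicle mice 9 of the 20 rose and 0 fell, where 1.77% of all tested genes rose and 0.861% fell (5.33% in either direction with the inhibitor and 2.63% with vehicle). A gene is said to rise or fall when its adjusted p is 0.05 or less (edgeR quasi-likelihood test over all genes, Benjamini-Hochberg). The median log2 change of the 20 reactive genes was 1.09 in inhibitor mice and 0.94 in vehicle mice, and that of all tested genes was -0.0012 and -0.0028. The same 9 genes rose with either treatment: Gfap, Vim, Nes, S100a6, Cd44, Cebpd, Lgals3, Gadd45b and Bcl3. A further 5, Serpina3n, Cp, S100a10, Steap4 and A2m, passed with the inhibitor alone. The other 6, Lcn2, Aspg, Id1, Id3, Ifitm3 and Tgfb2, passed in neither. Without the 3 libraries richest in lens transcripts, 10 reactive genes rose in inhibitor and 5 in vehicle mice. With the couples of consecutive identifiers as a block, a fit chosen after the data were seen, 15 reactive genes rose in inhibitor and 13 in vehicle mice, where 10.7% and 6.36% of all tested genes passed in either direction. Of the 5 genes that passed with the inhibitor alone, all but Steap4 then passed with vehicle too, and Ifitm3 passed with the inhibitor.

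**Figure D2:**
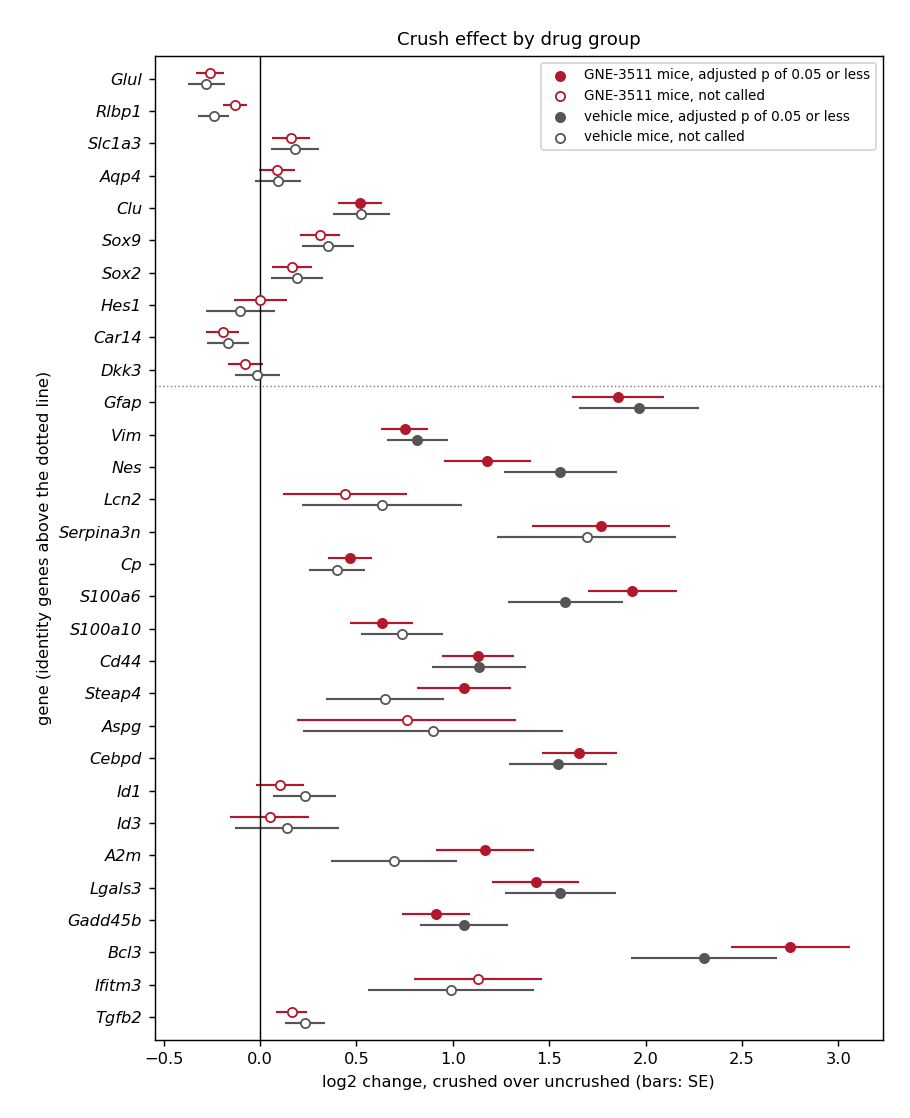
Log2 change of each gene, crushed over uncrushed retina (x axis), in GNE-3511 mice (red) and vehicle mice (grey); bars are the SE of the edgeR fit, filled points have an adjusted p of 0.05 or less. All 20 reactive genes lie right of 0 in both, led by Bcl3 at 2.75 and 2.30, and the identity genes lie between -0.28 and 0.53.

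The intermediate filament genes rose in both treatments. Gfap, the glial filament protein that is the standard mark of gliosis (Entrez 14580, GRCm38 chromosome 11, 102887336 to 102897200), stood at 25.5, 38.8, 20.4, 16.7 and 13.8 nRPKM in the crushed inhibitor retinas and at 25.5, 23.3 and 29.2 nRPKM in the crushed vehicle retinas. In the uncrushed inhibitor retinas it stood at 9.05, 4.95, 4.70, 6.91 and 6.36 nRPKM, and in the uncrushed vehicle retinas at 5.999, 8.28 and 5.66 nRPKM. Every crushed retina lay above every uncrushed one. The log2 change was 1.85 ± 0.24 in inhibitor mice (SE; edgeR adjusted p = 0.000102) and 1.97 ± 0.31 in vehicle mice (edgeR adjusted p = 0.00126), or 3.62-fold and 3.91-fold.

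Vim, which encodes vimentin, the filament protein Müller glia hold even at rest (Entrez 22352, chromosome 2, 13574311 to 13582826), rose less in fold and more in absolute level. It stood at 150, 164, 122, 106 and 101 nRPKM in crushed inhibitor and 142, 128 and 133 nRPKM in crushed vehicle retinas. The uncrushed inhibitor retinas held 87.4, 67.5, 80.4, 69.9 and 77.7 nRPKM and the uncrushed vehicle retinas 64.8, 80.4 and 83.9 nRPKM. The groups did not overlap, and the log2 changes were 0.75 ± 0.12 in inhibitor mice (edgeR adjusted p = 0.000808) and 0.82 ± 0.16 in vehicle mice (edgeR adjusted p = 0.00643). Nes, which encodes nestin, a filament protein of neural progenitors (Entrez 18008, chromosome 3, 87971093 to 87980451), stood at 2.03, 4.05, 1.80, 2.18 and 1.66 nRPKM in crushed inhibitor and 4.01, 1.89 and 3.48 nRPKM in crushed vehicle retinas. It lay between 0.988 and 1.11 nRPKM in uncrushed inhibitor and between 0.944 and 1.27 nRPKM in uncrushed vehicle retinas. The crushed values were scattered and the uncrushed ones tight, with no overlap. Nes changed by 1.18 ± 0.23 in inhibitor mice (edgeR adjusted p = 0.0033) and by 1.56 ± 0.29 in vehicle mice (edgeR adjusted p = 0.00547). Without the 2 shallowest vehicle libraries, crushed replicate 3 and uncrushed replicate 1, the vehicle changes of Vim and Nes no longer passed (edgeR adjusted p = 0.0684 for each).

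The upstream sequences of Gfap and Vim, which rose with either treatment, and of Steap4, which passed in inhibitor mice, are shown because 4 short motifs of injury-responsive factors were searched in the windows of the listed genes. Each runs from 250 bases before the start site to its first 30 bases, 5′ to 3′ on the strand of the gene, and comes from RefSeq (GRCm38.p6). The Gfap stretch is chr11:102897171-102897450 on the minus strand, with the STAT motif in capitals; that of Vim is chr2:13574061-13574340 on the plus strand, with the NF-kB motif in capitals. That of Steap4 is chr5:7960222-7960501 on the plus strand, where the capitals mark the NF-kB, STAT and C/EBP motifs, in that order.
Gfap: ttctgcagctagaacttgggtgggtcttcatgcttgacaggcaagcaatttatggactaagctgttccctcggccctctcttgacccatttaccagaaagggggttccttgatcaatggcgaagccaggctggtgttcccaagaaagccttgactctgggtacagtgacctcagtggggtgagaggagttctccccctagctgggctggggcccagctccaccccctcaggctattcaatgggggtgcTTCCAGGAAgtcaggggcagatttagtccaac
Vim: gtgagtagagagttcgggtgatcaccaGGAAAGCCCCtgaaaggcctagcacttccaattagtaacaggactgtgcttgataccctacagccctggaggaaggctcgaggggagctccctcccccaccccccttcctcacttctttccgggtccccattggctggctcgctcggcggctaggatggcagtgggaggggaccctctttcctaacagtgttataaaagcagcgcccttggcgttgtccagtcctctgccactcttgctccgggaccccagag
Steap4: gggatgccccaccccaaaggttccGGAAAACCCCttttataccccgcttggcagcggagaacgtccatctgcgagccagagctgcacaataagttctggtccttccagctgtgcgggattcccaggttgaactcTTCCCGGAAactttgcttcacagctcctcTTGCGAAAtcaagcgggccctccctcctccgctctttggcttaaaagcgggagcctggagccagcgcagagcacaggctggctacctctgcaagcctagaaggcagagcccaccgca
Relative to the start site, the Gfap match runs from -2 to 7 and the Vim match from -223 to -214. In Steap4 the matches run from -226 to -217 (NF-kB), -116 to -108 (STAT) and -87 to -80 (C/EBP). Both strands were searched for TTCNNNGAA (STAT), TGANTCA (AP-1), TTGCNNAA (C/EBP) and, for NF-kB, GGG, any 2 bases and TTTCC, over 300 bases that end 50 bases after the start, and no matches to different motifs overlapped in these genes. N stands for any base. Windows were found for 21 of the 30 genes, 16 reactive and 5 identity. The STAT motif was in 3 of 16 reactive genes (Gfap, Steap4 and Ifitm3) and 1 of 5 identity genes (Slc1a3), against 8.3% of all 32851 RefSeq windows. The NF-kB motif was in 3 of 16 reactive genes (Vim, Steap4 and Serpina3n) and 0 of 5 identity genes, against 1.63% of all windows. The C/EBP motif was in 3 of 16 reactive genes (Lcn2, Cp and Steap4) and 1 of 5 identity genes (Sox2), against 10.8%, and the AP-1 motif in 2 of 16 (Cp and Ifitm3) and 0 of 5, against 7.81%. A match describes letters and is not evidence of a factor bound there.

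Among the transcriptional and signalling regulators, Bcl3, Cebpd and Gadd45b rose with either treatment, while Id1, Id3 and Tgfb2 did not pass. Bcl3, an atypical IκB protein that acts with NF-κB subunits in the nucleus (Entrez 12051, chromosome 7, 19808462 to 19822824), had 3.94, 2.92, 1.38, 1.37 and 1.37 nRPKM in crushed inhibitor and 2.32, 3.77 and 2.24 nRPKM in crushed vehicle retinas. Uncrushed inhibitor retinas had 0.353, 0.273, 0.329, 0.382 and 0.299 nRPKM, and uncrushed vehicle retinas 0.569, 0.581 and 0.544 nRPKM. Every crushed value lay above every uncrushed one, and crushed inhibitor replicates 1 and 2 stood well above the other 3. Bcl3 changed by 2.75 ± 0.31 in inhibitor mice (6.72-fold; edgeR adjusted p = 2.49e-05), the largest change among the 30 genes in this contrast, and by 2.30 ± 0.38 in vehicle mice (edgeR adjusted p = 0.00176), again the largest. Exons of Gm16175 lie opposite 6.51% of its exonic bases.

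Cebpd, a C/EBP transcription factor of the acute-phase response (Entrez 12609, chromosome 16, 15887286 to 15889545), had 18.2, 18.7, 11.6, 11.03 and 9.54 nRPKM in crushed inhibitor and 14.7, 16.3 and 11.9 nRPKM in crushed vehicle retinas. It had 5.02, 3.05, 5.27, 3.88 and 4.77 nRPKM in uncrushed inhibitor and 3.79, 5.61 and 5.22 nRPKM in uncrushed vehicle retinas. No crushed value fell into the uncrushed range. Its changes were 1.66 ± 0.20 in inhibitor mice (edgeR adjusted p = 4.07e-05) and 1.54 ± 0.25 in vehicle mice (edgeR adjusted p = 0.00171), and exons of Spidr lie opposite 15.0% of its exonic bases. Gadd45b, a stress-induced gene of the p38 and JNK pathways, had 10.4, 9.95, 6.51, 5.28 and 6.93 nRPKM in crushed inhibitor and 8.51, 11.5 and 7.36 nRPKM in crushed vehicle retinas. Its uncrushed levels were 3.86 to 4.91 nRPKM with the inhibitor and 3.31 to 4.88 nRPKM with vehicle. The changes, 0.91 ± 0.18 in inhibitor mice (edgeR adjusted p = 0.00374) and 1.06 ± 0.23 in vehicle mice (edgeR adjusted p = 0.0156), were again without overlap between crushed and uncrushed retinas.

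Calcium-binding, adhesion and lectin genes rose with either treatment in 3 of 4 cases. S100a6, which encodes the calcium-binding protein calcyclin (Entrez 20200, chromosome 3, 90612894 to 90614414), had 31.4, 31.7, 15.3, 13.8 and 28.4 nRPKM in crushed inhibitor and 21.3, 22.5 and 22.3 nRPKM in crushed vehicle retinas. Uncrushed inhibitor retinas held 8.04, 4.19, 5.23, 7.62 and 6.83 nRPKM and uncrushed vehicle retinas 8.77, 6.73 and 6.72 nRPKM. The crushed inhibitor retinas split into 3 high and 2 low ones, all above the uncrushed retinas. The changes were 1.93 ± 0.23 in inhibitor mice (edgeR adjusted p = 4.42e-05) and 1.58 ± 0.30 in vehicle mice (edgeR adjusted p = 0.00547). Lgals3, the galectin-3 gene of phagocytes and reactive glia (Entrez 16854, chromosome 14, 47373860 to 47386167), had 4.48, 3.14, 2.02, 1.98 and 3.38 nRPKM in crushed inhibitor and 3.85, 3.97 and 4.10 nRPKM in crushed vehicle retinas. It had 0.663 to 1.39 nRPKM in uncrushed inhibitor and 1.19 to 1.70 nRPKM in uncrushed vehicle retinas, with no overlap. It changed by 1.43 ± 0.22 in inhibitor mice (edgeR adjusted p = 0.000596) and by 1.56 ± 0.29 in vehicle mice (edgeR adjusted p = 0.00472).

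Cd44, the hyaluronan receptor (Entrez 12505, chromosome 2, 102811141 to 102901669), had 3.95, 5.49, 2.501, 3.14 and 2.31 nRPKM in crushed inhibitor and 4.53, 3.05 and 3.57 nRPKM in crushed vehicle retinas. It lay at 1.44 to 1.68 nRPKM in uncrushed inhibitor and 1.46 to 1.85 nRPKM in uncrushed vehicle retinas, below all crushed ones. Its changes were nearly equal, 1.13 ± 0.19 in inhibitor mice (edgeR adjusted p = 0.00101) and 1.14 ± 0.24 in vehicle mice (edgeR adjusted p = 0.0139). S100a10, a partner of annexin A2, had 28.9, 39.5, 21.0, 19.4 and 24.3 nRPKM in crushed inhibitor and 32.2, 27.0 and 33.6 nRPKM in crushed vehicle retinas. The uncrushed ranges were 13.6 to 21.9 nRPKM with the inhibitor, which overlapped the crushed range, and 16.9 to 20.3 nRPKM with vehicle, which did not. It rose by 0.63 ± 0.16 in inhibitor mice (edgeR adjusted p = 0.0286), while its vehicle change of 0.74 ± 0.21 did not pass (edgeR adjusted p = 0.0857). The vehicle calls of S100a6 and Lgals3 were lost without the 3 libraries richest in lens transcripts (edgeR adjusted p = 0.0614 and 0.0595). The vehicle call of Cd44 was lost without uncrushed vehicle replicate 1 or 3, crushed vehicle replicate 1, the 2 shallowest or the lens-rich libraries (edgeR adjusted p up to 0.101). That of Gadd45b was lost without uncrushed vehicle replicate 1, crushed vehicle replicate 2, the 2 shallowest or the lens-rich libraries (edgeR adjusted p up to 0.0981). The inhibitor call of S100a10 was lost in 7 of 25 alternatives, among them those without crushed inhibitor replicate 1 or 2 or uncrushed inhibitor replicate 2, 3 or 4 (edgeR adjusted p up to 0.147).

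The acute-phase and protease- or iron-related genes Serpina3n, A2m, Steap4 and Cp passed in inhibitor mice and not in vehicle mice, and the difference between the treatments passed for none of the 4. Serpina3n, a secreted serine protease inhibitor induced in reactive astrocytes (Entrez 20716, chromosome 12, 104406646 to 104414334), had 28.2, 32.6, 12.02, 15.0 and 10.97 nRPKM in crushed inhibitor and 20.3, 22.0 and 18.1 nRPKM in crushed vehicle retinas. It had 11.96, 3.70, 2.36, 6.15 and 5.04 nRPKM in uncrushed inhibitor and 6.55, 5.41 and 6.77 nRPKM in uncrushed vehicle retinas. Uncrushed inhibitor replicate 1 lay above the lowest crushed inhibitor retina, replicate 5, and the vehicle groups did not overlap. The change in inhibitor mice was 1.77 ± 0.36 (edgeR adjusted p = 0.00521), and that in vehicle mice, 1.69 ± 0.47, did not pass (edgeR adjusted p = 0.0661). Serpina3n belongs to a cluster of near-identical genes, so its unique read counts are uncertain.

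A2m, the protease-trapping alpha-2-macroglobulin, had 7.04, 7.85, 3.82, 4.56 and 4.12 nRPKM in crushed inhibitor and 6.93, 6.11 and 5.05 nRPKM in crushed vehicle retinas. It had 4.05, 2.00, 1.46, 2.60 and 2.15 nRPKM in uncrushed inhibitor and 5.07, 3.52 and 2.67 nRPKM in uncrushed vehicle retinas, and both pairs of groups overlapped by 1 library. Its change was 1.17 ± 0.26 in inhibitor mice (edgeR adjusted p = 0.00905) and 0.69 ± 0.33 in vehicle mice, which did not pass (edgeR adjusted p = 0.467). Steap4, a metalloreductase induced in inflammation, had 0.374 to 0.624 nRPKM in crushed inhibitor and 0.475 to 0.634 nRPKM in crushed vehicle retinas. In uncrushed inhibitor retinas it had 0.128 to 0.344 nRPKM and in uncrushed vehicle retinas 0.269 to 0.455 nRPKM, below all crushed values of the same treatment. Its log2 change was 1.06 ± 0.24 in inhibitor mice (edgeR adjusted p = 0.0132) and 0.65 ± 0.31 in vehicle mice, which did not pass (edgeR adjusted p = 0.48). Cp, the copper ferroxidase ceruloplasmin, had 33.6 to 49.9 nRPKM in crushed inhibitor and 37.5 to 45.3 nRPKM in crushed vehicle retinas, against 24.2 to 37.3 nRPKM in uncrushed inhibitor and 29.8 to 34.5 nRPKM in uncrushed vehicle retinas. Its changes were small, 0.47 ± 0.11 in inhibitor mice (edgeR adjusted p = 0.0184) and 0.40 ± 0.15 in vehicle mice, which did not pass (edgeR adjusted p = 0.24). Calls of Serpina3n and A2m in inhibitor mice were lost without the 3 libraries richest in lens transcripts (edgeR adjusted p = 0.0583 for Serpina3n). The call of Cp was lost there too, and without crushed inhibitor replicate 1 or 2 or uncrushed inhibitor replicate 3 or 4, with an edgeR adjusted p of up to 0.142.

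The 6 reactive genes that did not pass differ widely in level. Lcn2, the iron-siderophore carrier lipocalin 2 that is strongly induced in brain astrocytes by inflammation, had 4.63 to 12.4 nRPKM in crushed inhibitor and 6.55, 16.3 and 7.23 nRPKM in crushed vehicle retinas. It had 3.10 to 9.42 nRPKM in uncrushed inhibitor and 5.31 to 7.87 nRPKM in uncrushed vehicle retinas, so all groups overlapped. The log2 change was 0.44 ± 0.32 in inhibitor mice (95% interval -0.24 to 1.12) and 0.63 ± 0.41 in vehicle mice (-0.24 to 1.51). Id1 and Id3, inhibitors of helix-loop-helix transcription factors that respond to BMP signals, had changes of 0.10 ± 0.12 and 0.05 ± 0.21 in inhibitor mice. In vehicle mice the changes of Id1 and Id3 were 0.23 ± 0.16 and 0.14 ± 0.27. Tgfb2, a TGF-beta ligand gene, had a log2 change of 0.16 ± 0.08 in inhibitor and 0.23 ± 0.10 in vehicle mice (edgeR adjusted p = 0.376 and 0.429), with 95% intervals that ended at 0.34 and 0.45. Ifitm3, an interferon-induced membrane protein, had a log2 change of 1.13 ± 0.33 in inhibitor mice (edgeR adjusted p = 0.0591) and 0.99 ± 0.43 in vehicle mice (edgeR adjusted p = 0.395), and belongs to a family of similar genes, which makes its counts uncertain. Its inhibitor value passed in 5 of 25 alternatives, among them those without crushed inhibitor replicate 3 or 5 or uncrushed inhibitor replicate 1, with an adjusted p as low as 0.00861. Aspg, an asparaginase gene of reactive astrocytes, had a log2 change of 0.76 ± 0.57 in inhibitor and 0.90 ± 0.67 in vehicle mice.

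By nRPKM alone, 10 of the 20 reactive genes had every crushed inhibitor retina above every uncrushed inhibitor one, where 3.4% of all tested genes did. In vehicle mice 14 of the 20 had every crushed retina above every uncrushed one, where 8.13% of all tested genes did; 0 of the 30 members had the opposite order, found in 4.75% of all tested genes. The vehicle comparison rests on 3 retinas a group, and its SE were larger for each of the 20 reactive genes.

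**Figure D3:**
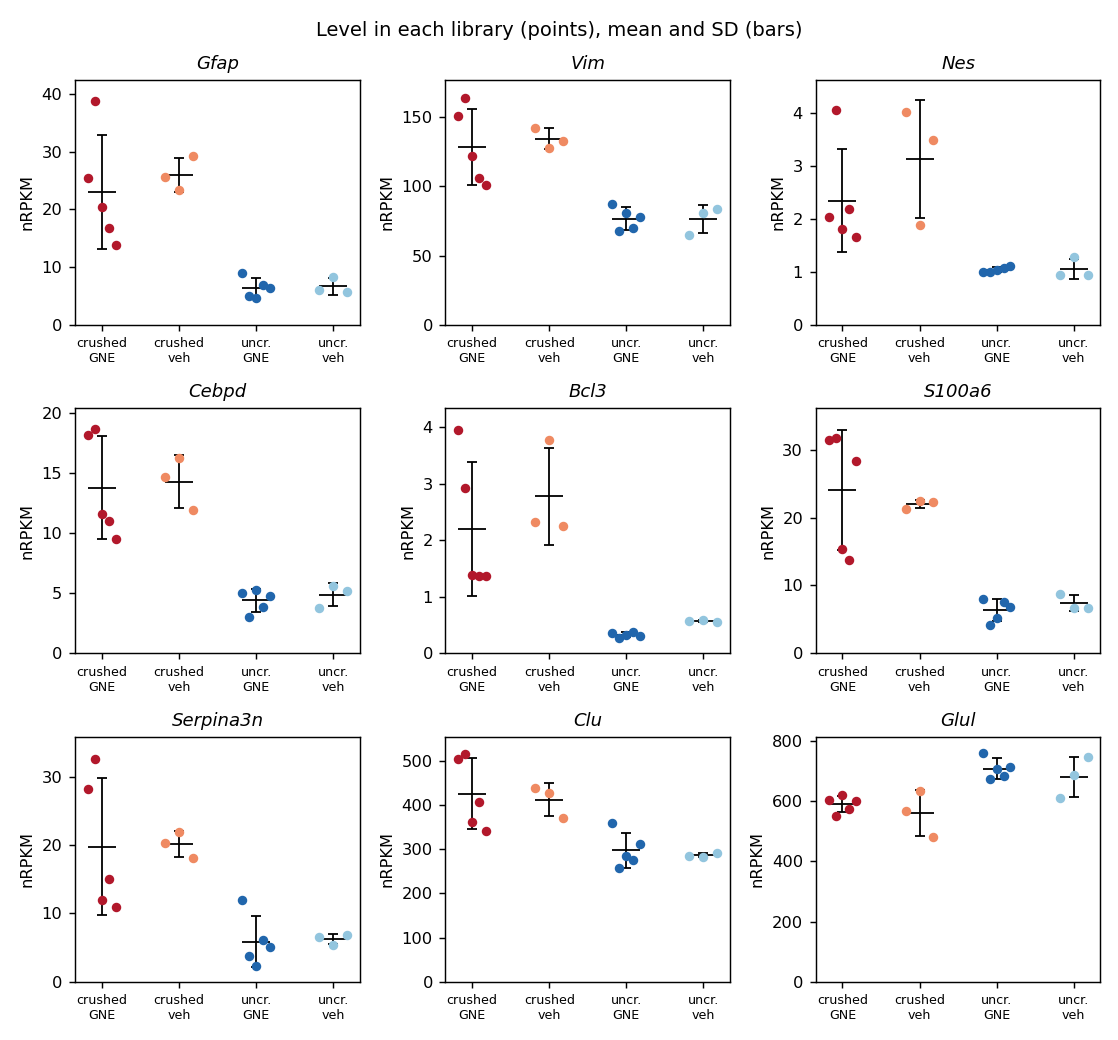
Level in nRPKM (y axis, from 0) of 9 genes in each library (points) of the 4 groups, with the mean and SD. Gfap, Vim, Nes, Cebpd, Bcl3 and S100a6 show crushed libraries above all uncrushed ones; Clu is higher and Glul somewhat lower in crushed retina, and the inhibitor and vehicle groups of the same injury state overlap except for Bcl3 in uncrushed retina.

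The summed level of the 10 identity genes overlapped between crushed and uncrushed retinas, while the shares that Glul and Clu had in it did not. The genes summed to 4750 to 5494 CPM in crushed inhibitor, 4381 to 5408 CPM in crushed vehicle, 4801 to 5858 CPM in uncrushed inhibitor and 4576 to 5355 CPM in uncrushed vehicle retinas, ranges that overlapped throughout. One of the 10 rose in inhibitor mice and 0 fell; in vehicle mice 0 passed in either direction. Their median log2 change was 0.04 in both. At an unadjusted p under 0.05, 4 of the 10 passed in each treatment, where 14.4% of all tested genes did in inhibitor and 10.4% in vehicle mice. DESeq2 called 2 of the 10 in inhibitor and 1 in vehicle mice, where it called 4.38% and 2.38% of the genes it fitted. With the couples as a block 4 passed in each treatment: Clu, Glul, Sox9 and Car14 in inhibitor mice and Clu, Glul, Sox9 and Rlbp1 in vehicle mice. The blocked fit called 10.7% of all tested genes in inhibitor and 6.36% in vehicle mice.

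Clu was the identity gene that rose in the fit without couples. It had 504, 515, 361, 407 and 340 nRPKM in crushed inhibitor and 439, 427 and 370 nRPKM in crushed vehicle retinas (Entrez 12759, chromosome 14, 65968483 to 65981548). Uncrushed inhibitor retinas had 360, 258, 284, 274 and 311 nRPKM and uncrushed vehicle retinas 285, 282 and 292 nRPKM. Only uncrushed inhibitor replicate 1 reached the crushed range. The change was 0.52 ± 0.11 in inhibitor mice (edgeR adjusted p = 0.00946) and 0.53 ± 0.15 in vehicle mice, which did not pass (edgeR adjusted p = 0.0749). Without the 3 libraries richest in lens transcripts the inhibitor value did not pass either (edgeR adjusted p = 0.0675).

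Glul, the most abundant of the list, missed the threshold in either treatment and passed it in both once the couples were a block. It had 604, 552, 620, 574 and 600 nRPKM in crushed inhibitor and 568, 635 and 481 nRPKM in crushed vehicle retinas (Entrez 14645, chromosome 1, 153899929 to 153909723). Uncrushed inhibitor retinas had 762, 674, 708, 684 and 713 nRPKM and uncrushed vehicle retinas 612, 686 and 746 nRPKM. All 5 crushed inhibitor values lay below all 5 uncrushed ones, as they did for 3.3% of all tested genes, and the vehicle groups overlapped. The log2 change was -0.26 ± 0.07 in inhibitor mice (edgeR adjusted p = 0.0528) and -0.28 ± 0.10 in vehicle mice (edgeR adjusted p = 0.194). In 10 of 25 alternatives the inhibitor value passed, with an adjusted p as low as 0.00784. Among these were the fits without crushed vehicle replicate 2 or 3 and without uncrushed vehicle replicate 1 or 3. In the 5 inhibitor couples Glul had to be lower in the crushed library, as no crushed value reached an uncrushed one. Glul was also lower in the crushed library of each of the 3 vehicle couples, which were chosen after the data were seen. With the couples as a block its log2 change was -0.26 ± 0.04 in inhibitor mice (edgeR adjusted p = 0.000687) and -0.28 ± 0.05 in vehicle mice (edgeR adjusted p = 0.00433).

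As a share of the summed CPM of the 10 identity genes, Glul made up 33.5% to 40.8% in crushed inhibitor against 42.0% to 44.2% in uncrushed inhibitor retinas. In vehicle mice its share was 35.4% to 38.8% in crushed against 42.6% to 44.8% in uncrushed retinas. The Clu share was 17.3% to 23.6% in crushed inhibitor against 12.7% to 15.0% in uncrushed inhibitor retinas. With vehicle the Clu share was 19.7% to 21.1% in crushed against 13.2% to 15.2% in uncrushed retinas. None of these pairs of ranges overlapped, and a share needs no scaling between libraries, though the shares of a sum depend on each other.

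The other 8 identity genes did not pass in the fit without couples. Rlbp1 had a log2 change of -0.13 ± 0.06 in inhibitor mice and -0.24 ± 0.08 in vehicle mice (edgeR adjusted p = 0.35 and 0.174). Sox9, a transcription factor of Müller glia and progenitors, had log2 changes of 0.31 ± 0.10 and 0.35 ± 0.13 in inhibitor and vehicle mice (edgeR adjusted p = 0.103 and 0.27). With the couples as a block both changes of Sox9 passed (edgeR adjusted p = 0.00024 and 0.0015). That of Rlbp1 then passed in vehicle mice (edgeR adjusted p = 0.0354) and that of Car14 in inhibitor mice (-0.19 ± 0.04; edgeR adjusted p = 0.00639). Slc1a3, Aqp4, Sox2, Hes1, Car14 and Dkk3 had log2 changes of -0.19 to 0.17 in inhibitor mice and -0.17 to 0.19 in vehicle mice. For 8 of the 10 genes, all but Clu and Sox9, the 95% interval of the crush effect lay within ± 0.5 on the log2 scale in either treatment.

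Of the shares of the 20 reactive genes in their sum, 4 were higher in crushed retinas without overlap in both treatments, those of Gfap, Bcl3, Cebpd and S100a6. Another 3, those of Tgfb2, Cp and Id1, were lower in both, and 10 overlapped in both, that of Vim among them. A share falls when the rest of the sum rises more, and the log2 changes of these 3 genes were above 0 in both treatments. How often such shares separate in other gene sets was not tested. Gfap made up 8.96% to 14.7% of the summed CPM of the 20 reactive genes in crushed inhibitor against 4.42% to 6.18% in uncrushed inhibitor retinas. In vehicle mice it made up 11.02% to 14.6% in crushed against 4.39% to 6.48% in uncrushed retinas. The share of Vim overlapped, at 23.8% to 27.6% in crushed inhibitor against 23.5% to 29.8% in uncrushed inhibitor retinas. Tgfb2 made up 8.48% to 11.6% in crushed inhibitor against 13.1% to 17.2% in uncrushed inhibitor retinas.

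Genes known from the same response were read beside the members. Of 30 further gliosis and injury-signal genes, 17 rose in inhibitor mice and 15 in vehicle mice, and 0 fell. Stat3, the transcription factor that relays gp130 cytokine signals in glia, had 29.3 ± 4.11 nRPKM in crushed inhibitor, 30.7 ± 2.81 in crushed vehicle, 13.2 ± 0.643 in uncrushed inhibitor and 14.1 ± 1.11 in uncrushed vehicle retinas (SD, n = 5, 3, 5 and 3). Its log2 change was 1.16 ± 0.08 in inhibitor mice (edgeR adjusted p = 1.79e-07) and 1.12 ± 0.11 in vehicle mice (edgeR adjusted p = 7.74e-06). The oncostatin M receptor gene Osmr rose by 1.53 ± 0.17 in inhibitor mice, the fibroblast growth factor gene Fgf2 by 1.76 ± 0.23 in vehicle mice, and the chemokine gene Cxcl10 by 4.66 ± 0.44 in inhibitor and 3.99 ± 0.52 in vehicle mice. Osmr and Fgf2 each rose with the other treatment too, and their calls in both treatments held in all 25 alternatives. Of 22 further Müller glia genes, 2 rose in inhibitor mice, the retinoic acid hydroxylase gene Cyp26a1 (0.70 ± 0.15) and the matrix protein gene Sparc (0.35 ± 0.10). In vehicle mice Cyp26a1 rose (0.80 ± 0.20) and Spc25 fell by 0.36 ± 0.09 on the log2 scale. The median log2 change of these 22 was 0.01 in inhibitor and 0.04 in vehicle mice. The calls of Sparc in inhibitor mice and of Cyp26a1 and Spc25 in vehicle mice were lost in 12 to 16 of 25 alternatives.

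Reactive astrocytes of the brain have been sorted into a class seen after inflammation (A1) and a class seen after ischaemia (A2). Of 12 A1-class genes 6 rose in inhibitor and 4 in vehicle mice, among them the guanylate-binding protein gene Gbp2 (2.18 ± 0.22 and 1.91 ± 0.28) and the immunoproteasome gene Psmb8 (1.14 ± 0.20 and 1.04 ± 0.26). The vehicle call of Psmb8 was lost in 10 of 25 alternatives. Of 10 A2-class genes tested, Cd109 and Emp1 rose in inhibitor mice (2.17 ± 0.38 and 2.30 ± 0.56) and Cd109 in vehicle mice (2.74 ± 0.54). Neither list holds any of the 30 members, so each class is counted without them. The call of Emp1 was lost without crushed inhibitor replicate 5, uncrushed inhibitor replicate 2 or the lens-rich libraries, and with limma-voom. Cd109 was low throughout, at 0.109 ± 0.0291 nRPKM in crushed inhibitor and 0.117 ± 0.0802 in crushed vehicle against 0.0235 ± 0.0104 in uncrushed inhibitor and 0.0154 ± 0.0077 in uncrushed vehicle retinas.

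Among markers of other cells, mainly those of microglia moved with the reactive genes. The 16 microglia genes summed to 111 to 191 CPM in crushed inhibitor and 137 to 159 CPM in crushed vehicle retinas, against 75.4 to 107 CPM in uncrushed inhibitor and 96.3 to 97.2 CPM in uncrushed vehicle retinas. Of the 16, 13 rose in inhibitor and 7 in vehicle mice; Cd68, a lysosomal gene of phagocytes, changed by 1.62 ± 0.23 and 1.64 ± 0.30, and Laptm5, a lysosomal gene of blood-lineage cells, by 1.04 ± 0.14 and 0.79 ± 0.18. In vehicle mice 6 of the 7 calls, all but that of Cd68, were lost without crushed vehicle replicate 1, without crushed vehicle replicate 2 or without the 2 shallowest libraries. In inhibitor mice 9 of the 13 calls were kept without the lens-rich libraries. The 5 retinal astrocyte genes summed to 62.2 to 92.5 CPM in crushed inhibitor, 70.5 to 86.2 CPM in crushed vehicle, 44.9 to 99.8 CPM in uncrushed inhibitor and 62.6 to 74.4 CPM in uncrushed vehicle retinas, ranges that overlapped. Of these 5, Slc14a1, a urea transporter gene, rose by 0.88 ± 0.12 in inhibitor and 0.92 ± 0.15 in vehicle mice, and the astrocyte transcription factor gene Pax2 had 0.202 ± 0.0679, 0.185 ± 0.0282, 0.136 ± 0.0219 and 0.13 ± 0.0222 nRPKM in crushed inhibitor, crushed vehicle, uncrushed inhibitor and uncrushed vehicle retinas. The log2 changes of the 5 ran from -0.21 to 0.88 in inhibitor mice (median 0.35) and from -0.55 to 0.92 in vehicle mice (median 0.33). In each treatment 4 of the 5 were above 0. At an unadjusted p under 0.05 (edgeR), 3 of them passed in inhibitor and 1 in vehicle mice. Of all tested genes 14.4% and 10.4% did. With the couples as a block 2 of the 5 passed in each treatment, Slc14a1 and Pdgfra. The part of microglia and astrocytes in the changes of the reactive genes was not tested. Among 11 genes of infiltrating leukocytes, Ly6c2 had at most 1 read and Cd3e, Ms4a1 and S100a8 at most 4 reads in any library. The 11 leukocyte genes summed to 6.08 to 12.4, 4.10 to 11.97, 3.55 to 9.30 and 6.89 to 10.7 CPM in the same order of groups. Of the 5 tested 0 passed, and 1 had an unadjusted p under 0.05 (edgeR) in inhibitor mice and 0 in vehicle mice. Their median log2 change was 0.51 in inhibitor and 0.04 in vehicle mice, with 4 of the 5 above 0 in each. Of 12 vascular and 7 pigment epithelium genes 0 passed with either treatment by edgeR (1 vascular gene at an unadjusted p under 0.05 in inhibitor mice and 0 otherwise). Of 5 fibroblast genes the collagen gene Col3a1 rose in inhibitor mice (0.68 ± 0.18; edgeR adjusted p = 0.0317), a call lost in 8 of 25 alternatives, and 0 passed in vehicle mice. The fibroblast genes summed to 21.0 to 38.4 CPM in crushed inhibitor, 13.3 to 39.8 CPM in crushed vehicle, 9.63 to 29.7 CPM in uncrushed inhibitor and 20.1 to 27.1 CPM in uncrushed vehicle retinas. Of 8 rod genes 0 passed in inhibitor mice, and Pdc, the phosducin gene, fell by 0.64 ± 0.16 on the log2 scale in vehicle mice (edgeR adjusted p = 0.0369), a call lost in 5 of 25 alternatives.

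**Figure D4:**
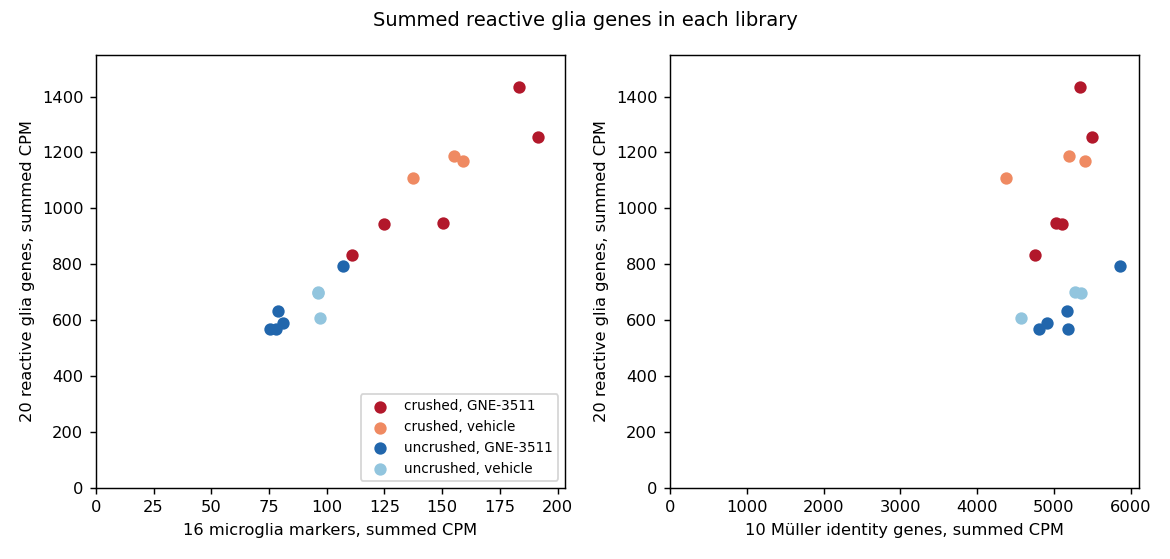
Summed CPM of the 20 reactive genes in each library (y axis) against the summed CPM of 16 microglia markers (left) and of the 10 identity genes (right), coloured by group. The 8 crushed libraries, at 833 to 1434 CPM, lie above the 8 uncrushed ones, at 568 to 792 CPM; crushed inhibitor replicates 1 and 2 are the highest in both the reactive and the microglia sum, and the identity sums of the groups overlap.

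Within the inhibitor groups the same libraries often held the highest reactive values. The summed CPM of the reactive genes in crushed inhibitor replicates 1 to 5 was 1257, 1434, 944, 948 and 833, against 1107 to 1186 in the 3 crushed vehicle retinas, 568 to 792 in uncrushed inhibitor and 607 to 701 in uncrushed vehicle retinas. Crushed inhibitor replicates 1 and 2 were among the 2 highest of their group for 17 and 18 of the 20 reactive genes, and replicate 5 was the lowest for 12. Replicates 1 and 2 also had the highest microglia sums of all 16 libraries, 191 and 183 CPM. Among uncrushed inhibitor retinas, replicate 1 was the highest for 17 of the 20 reactive and 8 of the 10 identity genes, and had the highest microglia sum of the uncrushed retinas, 107 CPM, and the highest astrocyte sum, 99.8 CPM. Without crushed inhibitor replicate 1, and likewise without replicate 2, 12 reactive genes rose in inhibitor mice, the calls of Cp and S100a10 being lost. The median coefficient of variation of the reactive genes was 34.1% in crushed inhibitor, 15.5% in crushed vehicle, 22.6% in uncrushed inhibitor and 16.5% in uncrushed vehicle retinas. For the identity genes it was 9.59%, 12.5%, 8.28% and 12.7% in the same groups.

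None of the 30 genes passed the test of GNE-3511 against vehicle. In crushed retina 0 of the 30 passed, where 0.505% of all tested genes did (0.129% higher and 0.376% lower), and 0 of the 30 had an unadjusted p under 0.05 (edgeR), where 13.7% of all tested genes did. DESeq2 and limma-voom also called 0 of the 30, where DESeq2 called 406 of 29449 genes. All 30 genes overlapped between inhibitor and vehicle, where 4.68% of all tested genes were higher and 4.87% lower without overlap. The lowest edgeR, DESeq2 or limma-voom adjusted p of any member across the alternatives was 0.151. Gfap averaged 23.03 ± 9.81 nRPKM in crushed inhibitor and 26.005 ± 2.97 nRPKM in crushed vehicle retinas, a log2 difference of -0.17 ± 0.26 with a 95% interval of -0.73 to 0.38. Vim averaged 129 ± 27.5 and 134 ± 7.38 nRPKM, a difference of -0.06 ± 0.14 with an interval of -0.36 to 0.23. Nes and Lgals3 had the larger differences among genes of moderate depth, -0.41 ± 0.25 (-0.93 to 0.11) and -0.40 ± 0.24 (-0.91 to 0.10). Serpina3n and S100a6 stood at -0.03 ± 0.39 (-0.86 to 0.80) and 0.13 ± 0.25 (-0.39 to 0.66).

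For 18 of the 20 reactive genes, all but Aspg and Lcn2, the interval lay within ± 1 on the log2 scale, so a 2-fold difference lay outside it. For the 10 identity genes it lay within ± 0.5. For 16 of the reactive genes the interval reached beyond ± 0.5, that is 1.41-fold. The median difference was -0.14 for the reactive and 0.07 for the identity genes, against 0.01 over all tested genes. Of the 9 ganglion cell genes in the same comparison, Pou4f1 and Isl2, transcription factors of ganglion cells, were higher with the inhibitor (1.39 ± 0.23 and 1.37 ± 0.19; edgeR adjusted p = 0.0108 and 0.0032). The call of Pou4f1 was lost without crushed vehicle replicate 1 (edgeR adjusted p = 0.0565). The median of the microglia genes was 0.02, and 0 of the 16 passed.

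**Figure D5:**
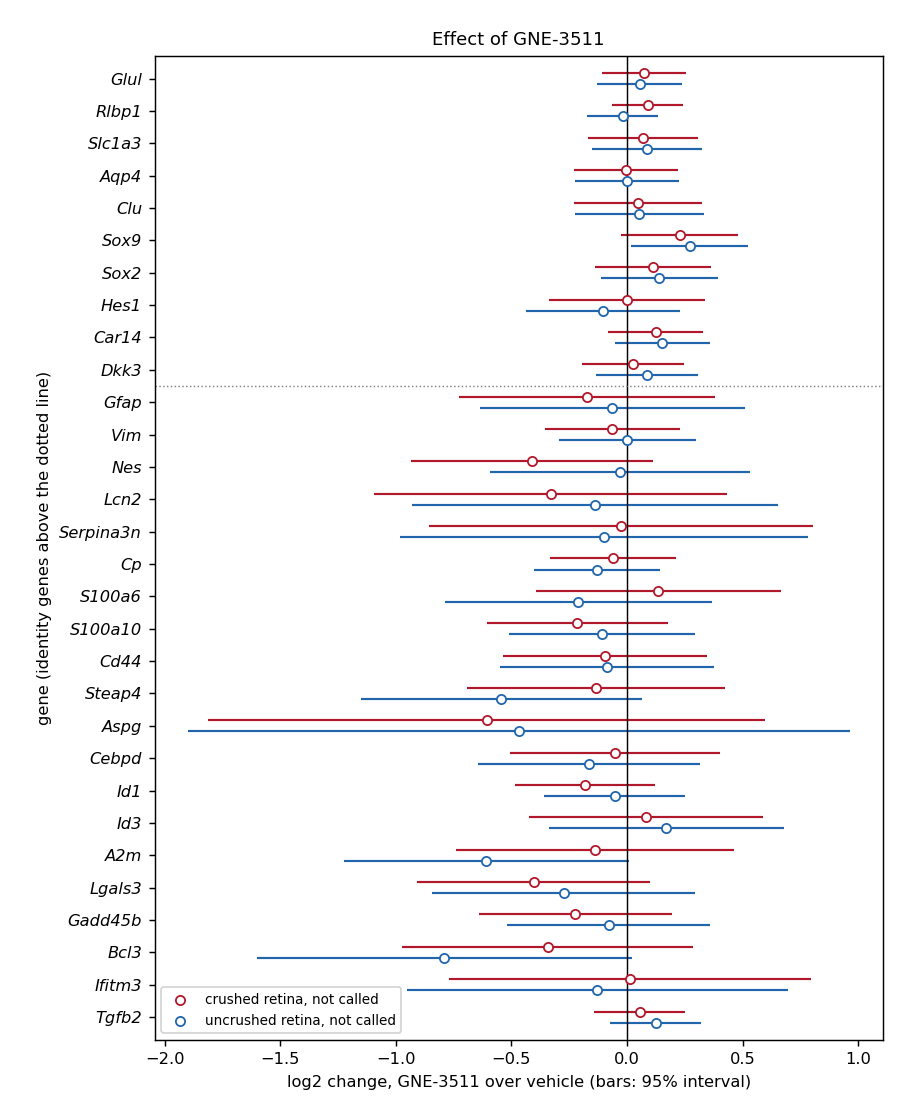
Log2 difference, GNE-3511 over vehicle (x axis), of each gene in crushed (red) and uncrushed (blue) retina; bars are 95% intervals of the edgeR fit and open points did not pass. All intervals but that of Sox9 in uncrushed retina, at 0.02 to 0.53, include 0.

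In uncrushed retina, inhibitor against vehicle, 0 of the 30 passed, where 0.629% of all tested genes did (51 genes or 0.263% higher and 71 or 0.366% lower, and 30 higher and 80 lower with upper quartile scaling). Of the 30, Sox9 was the 1 with an unadjusted p under 0.05 (edgeR adjusted p = 0.264), where 17.3% of all tested genes had one. Sox9 had 5.33, 5.26, 4.37, 5.36 and 3.99 nRPKM in uncrushed inhibitor and 3.56, 4.52 and 3.96 nRPKM in uncrushed vehicle retinas. The groups overlapped. DESeq2 and limma-voom called 0 of the 30 here as well, where DESeq2 called 622 of 29449 genes, and the lowest adjusted p of any member across the alternatives was 0.144. Bcl3 was the gene whose groups did not overlap: its 5 uncrushed inhibitor values, 0.273 to 0.382 nRPKM, lay below the 3 uncrushed vehicle values, 0.544 to 0.581 nRPKM, as was the case for 4.31% of all tested genes; the opposite order was found in 0 of the 30 members and 5.24% of all tested genes. Its difference of -0.79 ± 0.38 did not pass (edgeR adjusted p = 0.302), and it rested on 21 to 31 reads per inhibitor library and 28 to 50 per vehicle library. A2m and Steap4 stood at -0.61 ± 0.29 and -0.54 ± 0.29 (edgeR adjusted p = 0.295 and 0.345). The interval lay within ± 1 for 16 of the 20 reactive genes and within ± 0.5 for 9 of the 10 identity genes.

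The crush effects themselves were compared between the treatments as the difference of the log2 changes, inhibitor minus vehicle. It passed for 0 of the 30 genes, where 0.0103% of all tested genes passed, and 0 of the 30 had an unadjusted p under 0.05 (edgeR; 0 by DESeq2 and limma-voom), where 1.54% of all tested genes did. The 5 reactive genes that passed in inhibitor mice only were not shown to respond differently. For A2m the difference was 0.47 ± 0.41 (95% interval -0.40 to 1.34), for Steap4 0.41 ± 0.39 (-0.42 to 1.23), for Serpina3n 0.07 ± 0.58 (-1.14 to 1.29), for Cp 0.07 ± 0.18 (-0.32 to 0.46) and for S100a10 -0.11 ± 0.27 (-0.67 to 0.46). For Gfap it was -0.11 ± 0.38 (-0.91 to 0.69). The interval lay within ± 1 for 11 of the 20 reactive genes and all 10 identity genes. The median difference was -0.07 for the reactive and -0.01 for the identity genes, and -0.0048 for all tested genes.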

How the data were processed

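The files hold counts, the number of uniquely aligning reads per gene model, per the file headers, and RPKM that the authors adjusted by a size factor per library (nRPKM), per the file headers. The submitters' processing notes name GSNAP and GRCm38 without versions or annotation. The poly(A) libraries were unstranded, per the labels' protocols. All 16 libraries entered 1 model with a mean per group (edgeR 4.0.16 under R 4.3.3: TMM, filterByExpr, quasi-likelihood F test, two-sided, 12 residual degrees of freedom). Benjamini-Hochberg adjustment ran over 19391 genes in each of 5 contrasts. nRPKM gave levels only. DESeq2 1.42.0, limma 3.58.1 and other settings made up 25 alternatives, and a fit with consecutive title identifiers as a block was added after the data were seen. On simulated counts of 19180 genes, the crush fit recovered 81% of 100 genes with a log2 change of 1 with the inhibitor and 71% with vehicle. Recovery at the same change was 75% for the inhibitor effect in crushed and in uncrushed retina. For the difference of crush effects it was 65%. Replicates were numbered in record order, and no 2 were copies (chi-square per degree of freedom at least 6.73). Coordinates are from RefSeq (GRCm38.p6), exon overlap from GENCODE of the same build. The members and lists were chosen with earlier results of these data known. Named were the 30 members and, from each other list and contrast, up to 3 genes that passed with the smallest p. Pax2 and the scarce leukocyte genes were added as defining markers after their values were seen.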

Additional observations from a re-analysis of the deposited data

Results flagged for a closer look

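In the 2 groups of 5 libraries each gene's highest or lowest value was set against the others with Dixon's test (critical value 0.71). Of 60 such groups of values 5 held a library far from the other 4, and chance gives about 1 in 20. Nes stood at 4.05 nRPKM in crushed inhibitor replicate 2, with the next at 2.18. Dkk3 stood at 242 nRPKM in crushed inhibitor replicate 5, below the next at 276, and at 333 nRPKM in uncrushed inhibitor replicate 1, above the next at 286. Hes1 stood at 10.8 nRPKM in uncrushed inhibitor replicate 1, with the next at 7.47. Slc1a3 stood at 46.0 nRPKM in uncrushed inhibitor replicate 5, below the next at 53.9.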

How the results depend on the processing

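Gfap, Cebpd and Bcl3 rose with either treatment in all 25 alternatives and in the fit with pairs, and no member's call was reversed in any alternative run. Members called for the inhibitor effects or the difference of crush effects stayed at 0 in all of them. In inhibitor mice the count of reactive genes called, 14, was 12 to 15 with any 1 library left out; that of identity genes, 1, was 1 to 2 with a library left out, 2 with upper quartile scaling, a minimum of 1 CPM in 3 samples, DESeq2, limma-voom, the contrast's groups fitted alone or without the 2 shallowest vehicle libraries, and 0 once the 3 lens-rich libraries were left out. In vehicle mice the 9 reactive calls were 7 to 10 with a library left out, 5 without the 2 shallowest and 5 without the lens-rich libraries; the identity count was 1 with DESeq2 and with the groups fitted alone. Over all genes the 1034 crush calls with the inhibitor were 748 to 1258 with a library left out and 620 without the lens-rich ones. The 510 with vehicle were 276 to 506, and 281 with the groups fitted alone and 263 without the lens-rich ones. The inhibitor effect in crushed retina, 98 genes, was 22 to 144, and 406 with DESeq2, 45 with the groups alone and 53 without the shallowest libraries. That in uncrushed retina, 122 genes, was 17 to 205, and 622, 3 and 11 under the same settings and 7 without the lens-rich libraries. The difference, 2 genes, was 1 to 2, and 5 with DESeq2, 1 with limma-voom, 1 without the shallowest and 0 without the lens-rich libraries. Leaving out samples or fitting 2 groups leaves fewer degrees of freedom; other causes were not tested. The labels give no animal or replicate number shared between groups. Taking crushed and uncrushed libraries of 1 drug with consecutive identifiers in the titles as pairs, chosen after the data were seen, the 2 libraries of a pair deviated together from their group means with a correlation over 0.1 (across genes) in 7 of 8 pairs (0.0448 to 0.438), and in 7 of 8 the crushed library correlated best with its own partner. These correlations are a hint from the data. If each library holds 1 retina, the stated 5 mice per drug also imply paired eyes in the inhibitor groups. No label names the couples. With this replicate block the crush calls over all genes were 2080 with the inhibitor and 1234 with vehicle, the identity calls 4 and 4, no member called without it was lost, and none passed for the difference. Inhibitor effects lie between pairs and have no blocked value. Low counts limit Aspg, Steap4 and uncrushed Bcl3.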
